A study of Mus musculus with 6 samples.

Results

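Krueppel-like factors are transcription factors that bind DNA through C2H2 zinc fingers at the C-terminal end of the protein, and they recognise GC-rich boxes and the CACCC box. The zinc fingers are much alike in the whole family, whereas the N-terminal parts differ and recruit different partners: some members bind the corepressor CtBP, others the Sin3A complex, and others mainly activate transcription through acetyltransferases. In blood cells the family is known for roles in erythroid maturation, in the formation of monocytes, and in the quiescence and trafficking of lymphocytes. The 10 genes described here are Klf2, Klf3, Klf4, Klf5, Klf6, Klf7, Klf9, Klf10, Klf12 and Klf13, and their members on the array are all probe sets that the platform annotation gives to one of these genes alone. There were 38 such probe sets among the 45037 of the array, and the 10 genes are part of 18193 genes that could be read from at least one probe set of their own.

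Expression was measured on Affymetrix arrays in LSK cells, the lineage-negative, Sca1+ and c-Kit+ bone marrow cells in which haematopoietic stem cells and multipotent progenitors are found. The cells were sorted from C57BL/6 mice aged 6 to 7 weeks. The mutant samples were IkL/L, homozygous for an allele of Ikzf1 that lowers the amount of Ikaros and is carried by all cells of the animal, and the controls were wild type (WT). There were 3 arrays per genotype, each IkL/L sample being a pool of 2 mice and each WT sample coming from 1 mouse, so that genotype and pooling cannot be told apart. The deposited values are on the log2 scale, where a difference of 1 is a doubling. They carry no detection call, and probe sets with means below the array medians, which lay between 4.79 and 4.88, are called dim here. A probe set was called when its p in limma, adjusted after Benjamini and Hochberg over all probe sets, was under 0.05.

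The arrays were first checked on Ikzf1 and on markers of other cells. Ikzf1 measured 10.77, 10.85 and 10.93 in IkL/L cells, against 11.57, 11.59 and 11.44 in WT cells, a difference of -0.68 on the log2 scale (adjusted p = 0.0307 in limma). The groups did not overlap, although the call was kept only without WT 3 when single arrays were left out and the adjusted p was otherwise up to 0.157. On the first principal component, with 39.3% of the variance, WT 2 lay at -52.7, WT 1 at -18.6, WT 3 at 3.6 and the IkL/L arrays between 19.6 and 28.0. Of the markers that define LSK cells, Kit was bright, averaging 11.24 in IkL/L cells and 11.37 in WT cells. Ly6a, the gene of Sca1, was not among the genes read from a probe set of their own. Of 8 measured genes of the LSK list 1 rose (Tek; array means 9.14 to 9.54 in IkL/L cells and 8.96 to 9.21 in WT cells). Of all genes, each read from its brightest probe set, 0.748% were called higher and 0.242% lower, and the counts of the lists below stand against these shares too. An unadjusted p under 0.05 was reached by 5 of the 8 LSK markers, 2 of them lower in IkL/L cells, against 11.2% of all genes. Among these was Flt3, a receptor of multipotent progenitors, which was lower in IkL/L cells without overlap (difference -0.88, adjusted p = 0.132 in limma). It measured 9.56, 10.05 and 9.80 in IkL/L cells, against 10.97, 10.79 and 10.31 in WT cells. The other lower one was Ptprc (-0.22). Besides Tek, the higher ones were Tie1 (1.22, without overlap) and Procr (0.69, with overlap), and neither was called. The call of Tek was lost in 4 of 6 fits with 1 array left out, all but those without IkL/L 3 and without WT 3, and in such fits 0 to 1 genes of the list rose and 0 to 1 fell. Some genes of the lists for other lineages differed between the genotypes, and the granulocyte list also holds genes of granulocyte progenitors. Other genes did not pass the test and had a lower mean in IkL/L cells with overlapping groups, such as Itgam (-0.13), Fcgr1 (-0.01), Ltf (-0.10), Alas2 (-0.14), Ppbp (-0.28) and Pax5 (-0.22). The mean was higher in IkL/L cells for 8 of 10 monocyte genes, 9 of 10 granulocyte genes, 8 of 10 megakaryocyte genes, 8 of 9 erythroid genes and 7 of 9 B lineage genes. Of 10 measured monocyte genes 5 rose (Csf1r, F13a1, Ccr2, Cd14 and Cx3cr1), with an array mean of the list of 7.24 to 7.61 in IkL/L cells and 6.31 to 6.57 in WT cells. Of 10 granulocyte genes 2 rose (Ms4a3 and Elane; array means 8.68 to 9.12 in IkL/L cells and 7.79 to 8.11 in WT cells), of 10 megakaryocyte genes 3 (Itgb3, Vwf and Selp; 7.89 to 8.17 and 6.63 to 7.27), of 9 erythroid genes 1 (Aqp1; 7.82 to 8.24 and 7.33 to 7.44) and of 9 B lineage genes 2 (Vpreb1 and Ms4a1; 5.59 to 6.00 and 5.11 to 5.24), in the same order of genotypes. With 1 array left out, these counts ranged from 2 to 5 for monocyte genes, 0 to 4 for granulocyte genes, 0 to 3 for megakaryocyte genes, 0 to 2 for erythroid genes and 1 to 2 for B lineage genes, and without IkL/L 1 each was at its lowest. Of 14 genes of stroma and endothelium 1 rose (Cdh5; array means of the list 5.51 to 5.67 in IkL/L cells and 5.48 to 6.00 in WT cells). An unadjusted p under 0.05 was reached by 6 of the 14, 3 of them lower in IkL/L cells. Among the lower ones was Col1a1, at 3.75, 4.16 and 4.08 in IkL/L cells, against 6.36, 5.47 and 4.43 in WT cells (difference -1.43, not called). None of 7 genes of T and NK cells passed (0 also at an unadjusted p under 0.05), with array means of 4.45 to 4.57 in IkL/L cells and 4.41 to 4.65 in WT cells, and 4 of the 7 were dim. Per the study's methods, cells with B220, CD11b, Gr1 or Ter119 on their surface, which mark B lineage, myeloid and erythroid cells, had been depleted and were gated out in the sort. In a bulk sample, more cells of a type and more RNA per cell cannot be told apart, and the part of these lineages in the differences described next was not tested.

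The promoters of 3 of the genes are shown first. RefSeq windows of assembly GRCm38.p6, from 250 bases before the transcription start through the first 50 transcribed bases, were used for 8 of the 10 genes, all but Klf5 and Klf10. They were searched on both strands for CACCC, the box bound by the family itself, and for TGGGAA, one form of the Ikaros site. The CArG and MEF2 boxes, which are bound by SRF and MEF2 factors at many genes induced within minutes, were searched too. Klf9 is shown because it is the gene that was called, Klf2 because its window has a MEF2 box, and Klf3 because its window has the most CACCC boxes. Capitals mark CACCC or its complement GGGTG and, in Klf2, the MEF2 box. All 3 windows are on the plus strand, at chr19:23140976-23141275 for Klf9, chr8:72318812-72319111 for Klf2 and chr5:64803271-64803570 for Klf3.
Klf9: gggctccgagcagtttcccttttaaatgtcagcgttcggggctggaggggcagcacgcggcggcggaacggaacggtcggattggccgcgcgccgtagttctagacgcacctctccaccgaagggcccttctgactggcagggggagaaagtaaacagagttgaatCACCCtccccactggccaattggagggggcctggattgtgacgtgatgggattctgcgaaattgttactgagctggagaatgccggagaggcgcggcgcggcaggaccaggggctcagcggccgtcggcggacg
Klf2: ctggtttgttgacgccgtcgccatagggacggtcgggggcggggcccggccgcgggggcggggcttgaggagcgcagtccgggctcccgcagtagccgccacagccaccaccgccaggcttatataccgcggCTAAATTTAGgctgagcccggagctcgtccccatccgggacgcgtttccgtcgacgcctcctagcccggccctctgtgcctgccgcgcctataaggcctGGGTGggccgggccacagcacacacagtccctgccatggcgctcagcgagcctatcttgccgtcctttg
Klf3: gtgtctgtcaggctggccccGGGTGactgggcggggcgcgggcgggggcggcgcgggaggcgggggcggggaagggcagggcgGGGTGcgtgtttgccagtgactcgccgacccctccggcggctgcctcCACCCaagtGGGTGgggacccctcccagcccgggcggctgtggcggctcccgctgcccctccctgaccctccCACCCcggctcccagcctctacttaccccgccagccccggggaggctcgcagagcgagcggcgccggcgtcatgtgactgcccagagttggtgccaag
In the Klf9 window the single CACCC lies at -84 to -80 from the start. Klf2 has its MEF2 box, CTAAATTTAG, at -118 to -109 and a GGGTG at -19 to -15. Klf3 has 5 copies. CACCC was found in 6 of the 8 windows, all but those of Klf4 and Klf6, and it is in 57.5% of all 32851 promoter windows. TGGGAA was in 0 of the 8 windows and in 25.6% of all windows. The AGGAA motif that the study found enriched in Ikaros peaks was not searched, nor were its shorter GGAA and GGGA motifs. The count of TGGGAA therefore does not show whether these windows hold Ikaros sites. The CArG box was in 0 of the 8 and in 1.63% of all windows, and the MEF2 box in 1 of the 8 and in 0.557% of all windows.

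Of the 38 probe sets of the family, 1 was called, a probe set of Klf9 that was higher in IkL/L cells. Over the whole array 251 probe sets were called, 0.557% of all, and 191 of them, 0.424%, were higher in IkL/L cells. Of 18193 genes, each read from its brightest probe set, 0.748% were called higher and 0.242% lower. The family had no common direction: 17 probe sets had a higher and 21 a lower mean in IkL/L cells, with a median difference of -0.01 on the log2 scale, against -0.02 over all probe sets. The IkL/L and WT values did not overlap for 6 of the 38 probe sets, 5 with IkL/L above and 1 below, or 15.8%, which is near the 14.4% found over the whole array (6.06% above and 8.36% below). An unadjusted p under 0.05 was reached by 5 of the 38, or 13.2%, against 8.84% of all probe sets. Klf9 held 4 of these 5 probe sets and 4 of the 6 without overlap. Of the 38, 12 were dim.

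**Figure D1:**
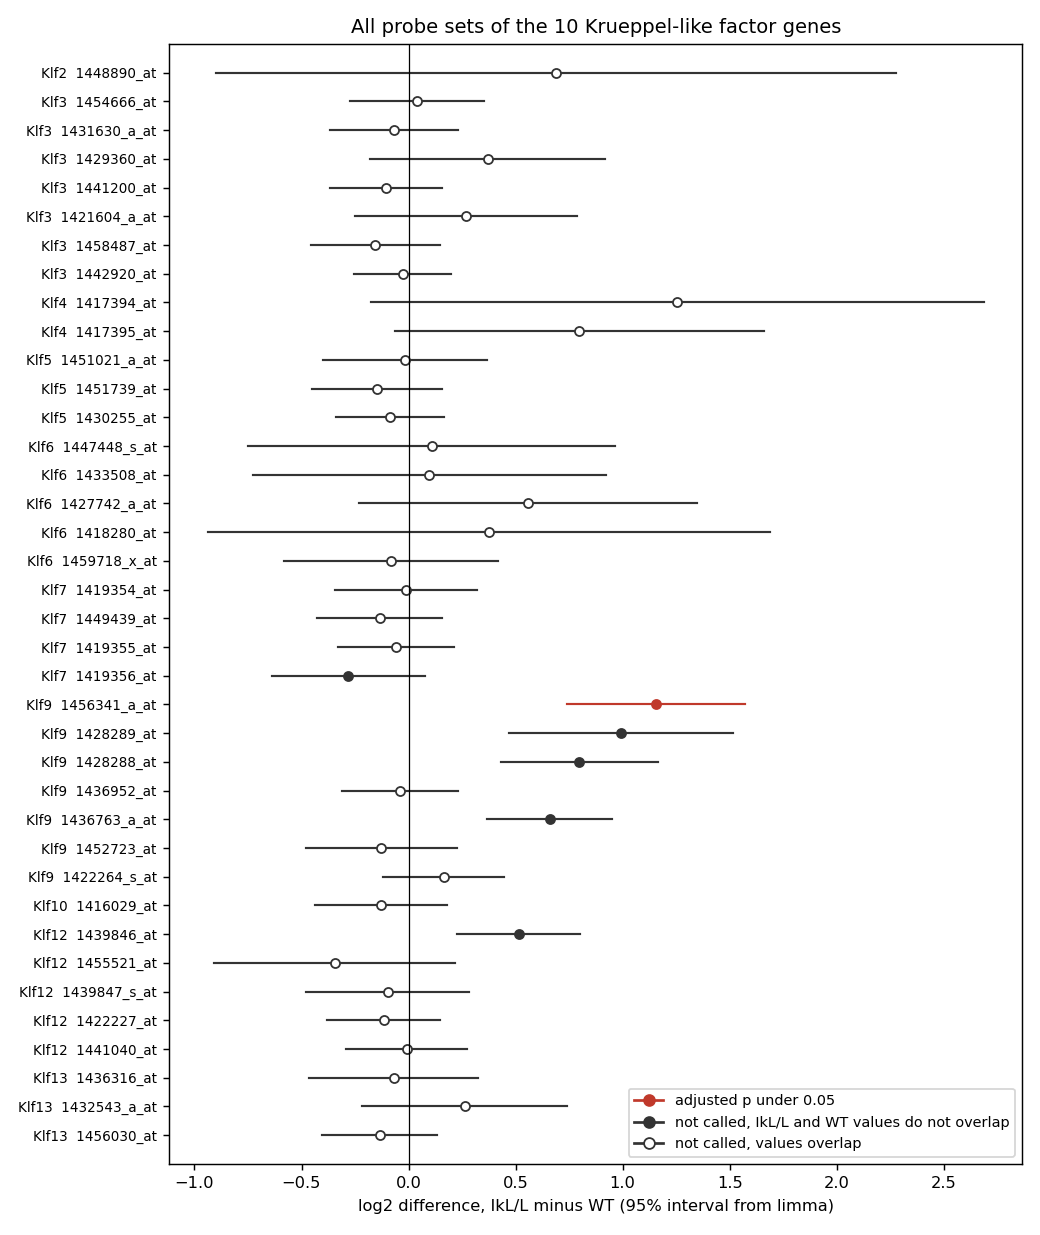
Difference between IkL/L and WT (horizontal axis, log2 scale) for each of the 38 probe sets, with its 95% interval from limma; filled points are probe sets whose IkL/L and WT values do not overlap, and the called one is red. Only the Klf9 probe set 1456341_a_at is called, and most intervals of the other genes include 0.

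Klf9 is a member that binds Sin3A and is known as a direct target of glucocorticoid and thyroid hormone receptors. Its brightest probe set, 1456341_a_at, measured 11.13, 11.36 and 10.66 in IkL/L cells, against 9.75, 9.88 and 10.05 in WT cells. The groups did not overlap, the lowest IkL/L value of 10.66 being above the highest WT value of 10.05. The means were 11.05 ± 0.36 in IkL/L cells and 9.89 ± 0.15 in WT cells (SD, n = 3 each), a log2 difference of 1.15 with a 95% interval of 0.74 to 1.57, or 2.23-fold higher in IkL/L cells (adjusted p = 0.0425 in limma). The call is close to the threshold. With the mean of all 7 probe sets in place of the brightest, the difference was 0.514 (adjusted p = 0.0273). The call was kept with any one of the other normalizations, filters and moderations that were tried, and it was lost in 5 of 6 fits that left out 1 array, all but that without IkL/L 3 (adjusted p up to 0.215), and in the fit that blocked on replicate number (adjusted p = 0.116).

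The other bright probe sets of Klf9 differed in the same direction without passing the test. On 1428289_at the gene measured 10.61, 10.96 and 10.01 in IkL/L cells, against 9.67, 9.34 and 9.59 in WT cells, a difference of 0.99 (interval 0.47 to 1.52, adjusted p = 0.159 in limma). On 1428288_at the values were 10.37, 10.56 and 9.97 in IkL/L cells and 9.56, 9.59 and 9.36 in WT cells, a difference of 0.80 (0.43 to 1.16, adjusted p = 0.102). In both, no IkL/L array overlapped with a WT array, and IkL/L 2 was highest and IkL/L 3 lowest among the IkL/L arrays. Probe set 1436763_a_at, which is dim, gave 4.24, 4.47 and 4.37 in IkL/L cells and 3.82, 3.47 and 3.80 in WT cells, a difference of 0.66 (0.37 to 0.95, adjusted p = 0.0922). The remaining 3 probe sets were dim too and differed by 0.16, -0.13 and -0.04. Probe sets with a_at or s_at in their name can take up several transcripts, and the place of the probes along Klf9 was not analysed here.

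**Figure D2:**
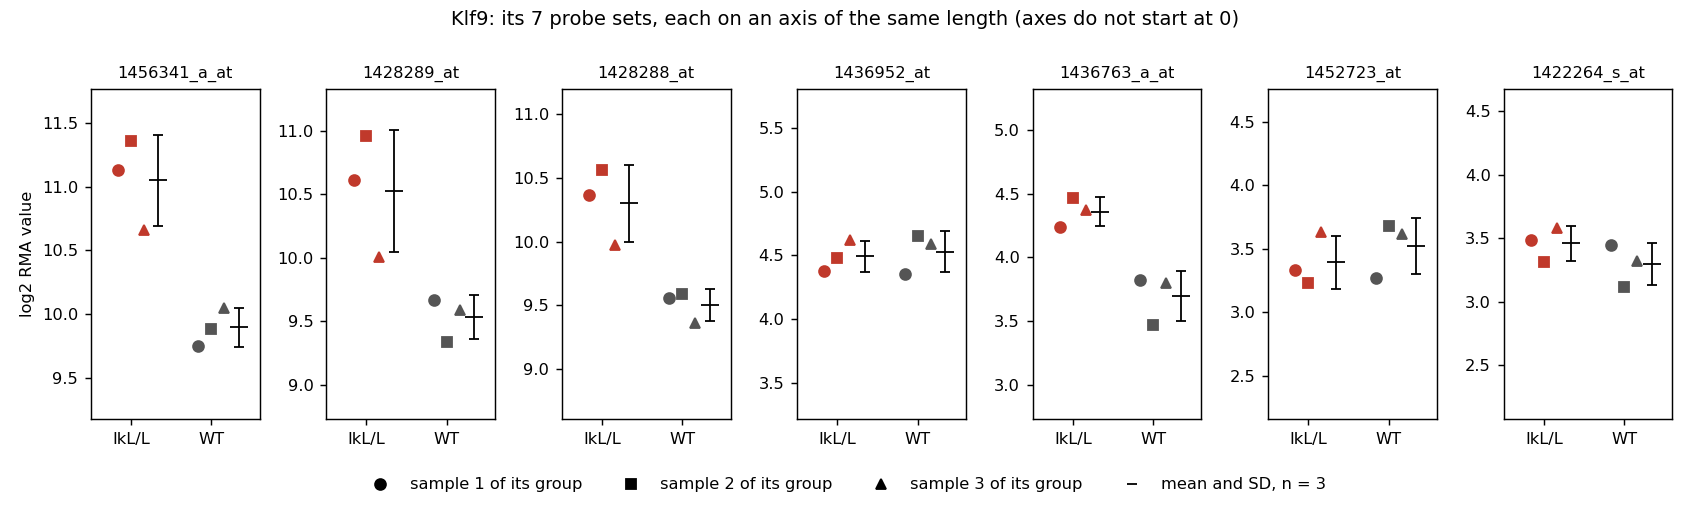
The 7 probe sets of Klf9 on axes of equal length (log2 RMA value), with IkL/L left of WT, a symbol per sample and the mean with SD beside it (n = 3). In the 3 bright probe sets and in 1436763_a_at the IkL/L points lie above all WT points, and in the 3 others the groups overlap.

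The other Sin3-binding members did not differ in this way. Klf10, known as a gene induced early by TGF-beta, measured 9.0, 9.10 and 8.63 in IkL/L cells, against 9.08, 9.07 and 8.98 in WT cells, a difference of -0.13 (interval -0.44 to 0.18, adjusted p = 0.844 in limma). The groups overlapped, and the interval leaves out a doubling in either direction. Klf13, which activates the chemokine gene Ccl5 in T cells, measured 8.77, 9.0 and 8.77 in IkL/L cells and 9.11, 9.11 and 8.53 in WT cells, a difference of -0.07 (-0.46 to 0.32, adjusted p = 0.940). Its other probe sets differed by 0.26 and -0.14. The difference of Klf9 from Klf10 and Klf13 was not tested.

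Klf3 and Klf12 repress transcription through CtBP, and they had 12 probe sets of which none was called, while 1 had an unadjusted p under 0.05. Klf3, whose gene is activated by Klf1 in erythroid cells, measured 9.21, 9.25 and 9.04 in IkL/L cells, against 9.29, 9.23 and 8.86 in WT cells, a difference of 0.04 (interval -0.27 to 0.35, adjusted p = 0.958 in limma). Its 7 probe sets ranged from -0.16 to 0.37, and the groups overlapped in all 7. Klf12 measured 5.90, 5.79 and 5.80 on 1439846_at in IkL/L cells and 5.37, 5.09 and 5.50 in WT cells, a difference of 0.51 (0.23 to 0.80, 1.43-fold higher, adjusted p = 0.185). The groups did not overlap there, but the other 4 probe sets of Klf12 had a lower mean in IkL/L cells, down to -0.35 on 1455521_at, and 3 of its 5 were dim, so that no single direction can be given for this gene.

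Klf2, Klf4 and Klf6 activate transcription, and all 3 are known to be induced within minutes to hours by outside stimuli. Klf2, which keeps T cells quiescent and drives their exit from lymphoid organs, measured 6.65, 8.54 and 5.62 in IkL/L cells, against 5.40, 6.47 and 6.88 in WT cells. IkL/L 2 stood far above the other arrays, and IkL/L 3 lay below 2 of the 3 WT arrays. The means were 6.94 ± 1.48 in IkL/L cells and 6.25 ± 0.77 in WT cells (SD, n = 3 each), a difference of 0.69 with an interval of -0.90 to 2.28 (adjusted p = 0.835 in limma). Without IkL/L 2 the difference was -0.11.

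Klf4, one of the reprogramming factors of pluripotency and a gene required for inflammatory monocytes, measured 7.66, 8.85 and 5.93 in IkL/L cells, against 5.89, 6.38 and 6.40 in WT cells. The groups overlapped through IkL/L 3 alone. The difference was 1.25 (interval -0.18 to 2.69, adjusted p = 0.630 in limma), and it was 0.57 without IkL/L 2 and 2.03 without IkL/L 3 (adjusted p = 0.089). Its second probe set gave 5.18, 6.33 and 4.62 in IkL/L cells and 4.43, 4.55 and 4.75 in WT cells, in the same order of IkL/L arrays, a difference of 0.80 (-0.06 to 1.66). The estimate for Klf4 is similar in size to that of Klf9, with a wider interval.

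Klf6, a factor expressed in many tissues and induced by injury, measured 7.56, 8.64 and 7.18 in IkL/L cells, against 7.18, 7.85 and 8.02 in WT cells, a difference of 0.11 (interval -0.75 to 0.96, adjusted p = 0.959 in limma). Again IkL/L 2 was highest, and without it the difference was -0.32. Its 5 probe sets ranged from -0.08 to 0.56 and the groups overlapped in all of them.

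**Figure D3:**
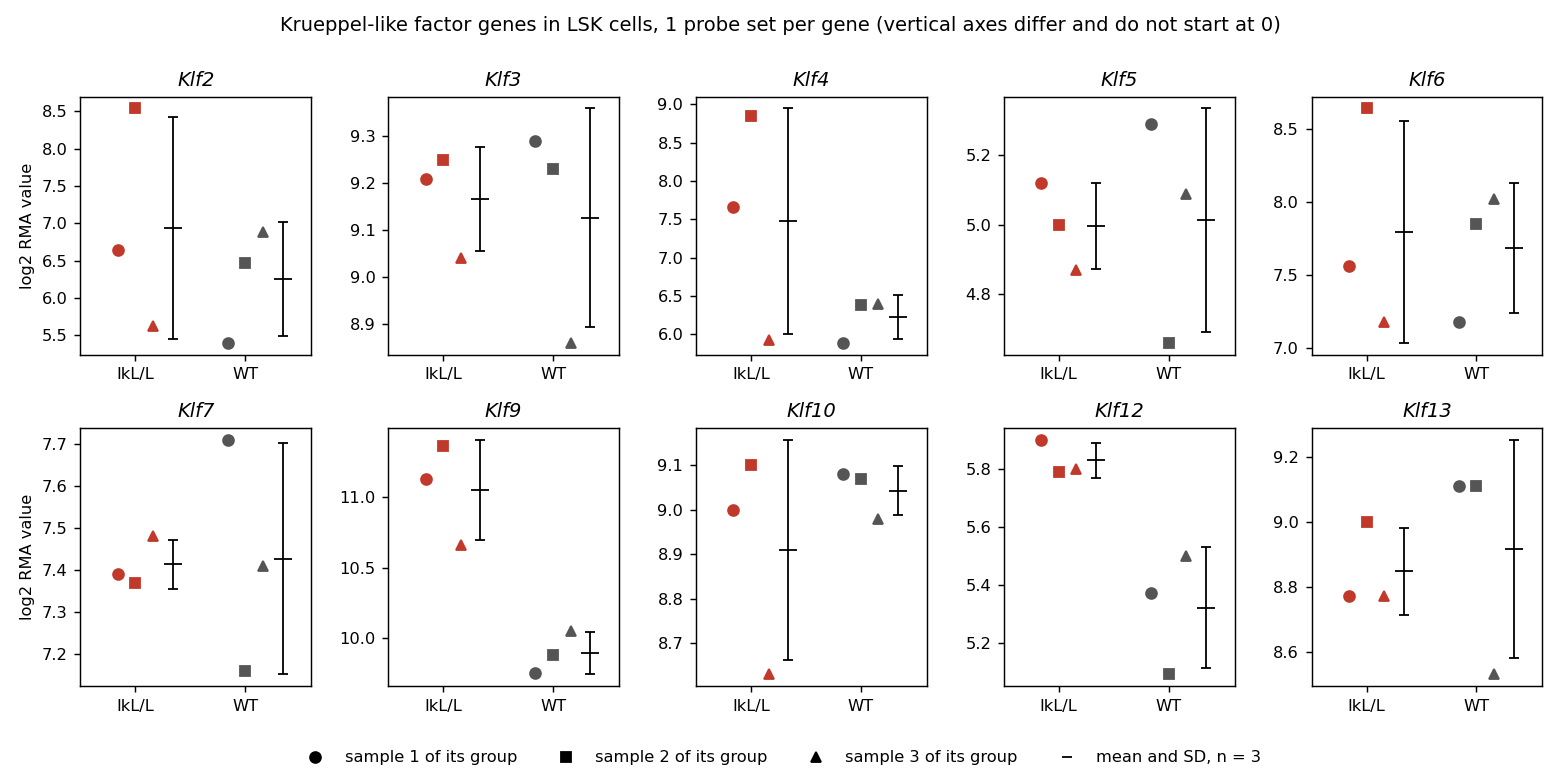
The 10 genes, each read from its brightest probe set (log2 RMA value, axes differ and do not start at 0), with IkL/L left of WT, a symbol per sample and the mean with SD (n = 3). Klf9 and Klf12 have no overlap between IkL/L and WT, whereas Klf2, Klf4 and Klf6 spread over more than 1 log2 unit among the IkL/L arrays.

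IkL/L 2, the array on which Klf2, Klf4 and Klf6 were highest, also had the highest mean of the immediate early genes. These are transcribed within minutes of a stimulus and can rise while cells are prepared. Of 21 immediate early genes, 17 were highest on IkL/L 2. The mean of the list was 8.43, 9.32 and 8.14 in IkL/L cells, against 7.83, 8.31 and 8.43 in WT cells. IkL/L 2 was highest here as for Klf2, Klf4 and Klf6, and IkL/L 3 lowest among the IkL/L arrays. The other arrays did not follow the list as closely. IkL/L 1 and WT 3 had the same list mean of 8.43, but Klf4 was at 7.66 and 6.40 there and Klf6 at 7.56 and 8.02. None of the 21 passed the test (2 at an unadjusted p under 0.05), their median difference was 0.45 on the log2 scale, against -0.02 over all genes, and it was 0.07 without IkL/L 2. The genes with the smallest p were Fosl2 (0.37, adjusted p = 0.217 in limma), Fosb (1.43), Btg2 (0.86) and Jun (0.80). Klf9 had the same order of IkL/L arrays as this list, highest on IkL/L 2 and lowest on IkL/L 3, and its difference without IkL/L 2 was 0.999 (adjusted p = 0.111). The part of the list in the values of Klf2, Klf4, Klf6 and Klf9 was not tested.

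**Figure D4:**
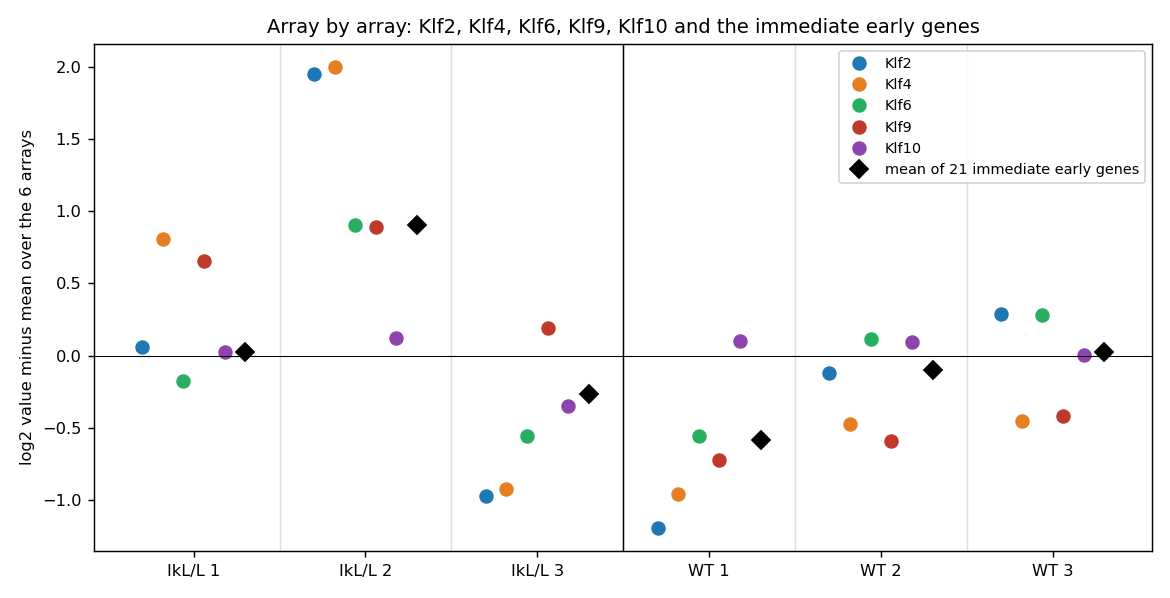
Log2 values of Klf2, Klf4, Klf6, Klf9 and Klf10 and the mean of 21 immediate early genes on each array, as the distance from the mean of the same gene over the 6 arrays. IkL/L 2 is the highest array for the immediate early genes and for all plotted genes, and Klf9 alone among those plotted has all IkL/L arrays above all WT arrays.

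Klf5 and Klf7 complete the activators. Klf5, known for the growth of epithelial cells, measured 5.12, 5.0 and 4.87 in IkL/L cells, against 5.29, 4.66 and 5.09 in WT cells, a difference of -0.02 (interval -0.40 to 0.36, adjusted p = 0.988 in limma), and 2 of its 3 probe sets were dim. Klf7, known from the outgrowth of axons, measured 7.39, 7.37 and 7.48 in IkL/L cells and 7.71, 7.16 and 7.41 in WT cells, a difference of -0.01 (-0.34 to 0.32, adjusted p = 0.989). Both genes lay within the spread between arrays. All 4 probe sets of Klf7 had a lower mean in IkL/L cells, and on 1419356_at the values were 5.50, 5.56 and 5.53 in IkL/L cells and 5.68, 6.17 and 5.59 in WT cells, which is the one probe set of the family with IkL/L below WT on all arrays (difference -0.28, -0.64 to 0.08, adjusted p = 0.671).

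**Figure D5:**
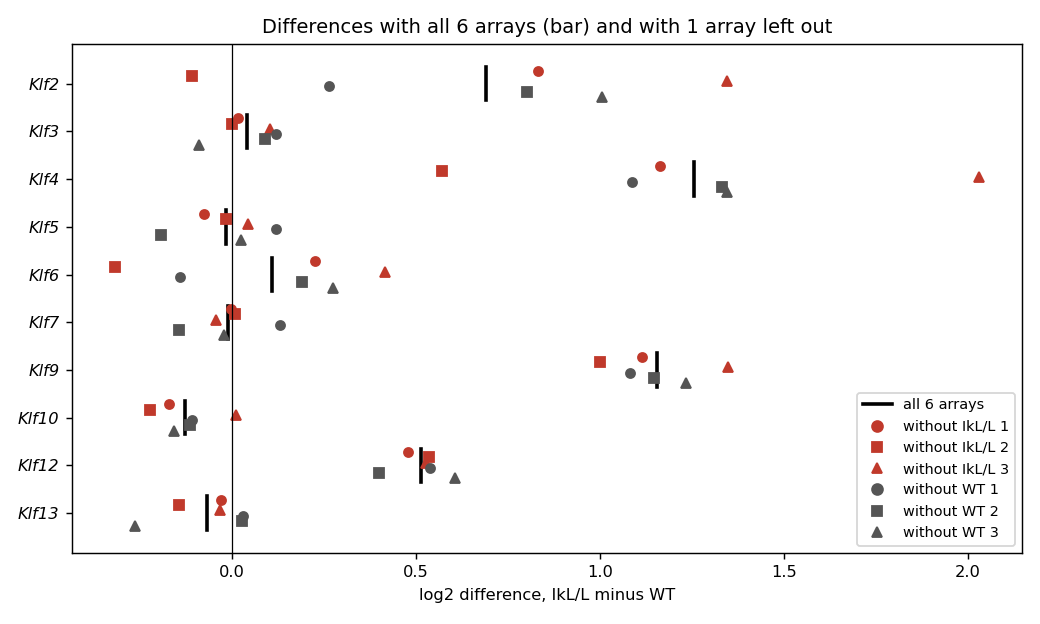
Log2 difference between IkL/L and WT (horizontal axis) of each of the 10 genes with all 6 arrays (bar) and with 1 array left out (symbols, red for an IkL/L and grey for a WT array). Klf9 stays between 0.999 and 1.35, Klf4 between 0.57 and 2.03, and Klf2 changes sign without IkL/L 2.

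The genes around the family were read in the same way, and counts at an unadjusted p under 0.05 stand against 11.2% of all genes. Of 13 measured genes among the other members and the Sp factors, 0 passed in either direction in limma (1 at an unadjusted p under 0.05, median difference -0.06). That one was Klf1, the erythroid activator, at 8.81, 9.20 and 8.38 in IkL/L cells, against 8.02, 7.45 and 7.90 in WT cells, with no overlap and a difference of 1.01 (adjusted p = 0.143). Of 18 measured corepressors, coactivators and ubiquitin ligases of the family, 0 passed (4 at an unadjusted p under 0.05, all lower in IkL/L cells, median -0.09). They were the acetyltransferase gene Ep300 (-0.37, adjusted p = 0.237), Sin3a (-0.34, adjusted p = 0.499), Smurf1 and Smurf2. The CtBP genes differed by -0.04 for Ctbp1 and 0.11 for Ctbp2. Of 17 measured genes reported as targets of the family, 0 passed (4 at an unadjusted p under 0.05, 1 higher and 3 lower, median -0.06). Thbd, the thrombomodulin gene and a target of Klf2 in endothelial cells, differed by 0.97 (adjusted p = 0.0558), and the integrin gene Itgb7 by -0.87 (adjusted p = 0.126). The 2 others were Smad7 (-0.49, adjusted p = 0.289) and Ccr7 (-0.38, adjusted p = 0.447). S1pr1, the Klf2 target that guides lymphocyte exit, differed by 0.43 (adjusted p = 0.645).

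Klf9 was also set beside a list of 15 genes for glucocorticoid and thyroid hormone action. It holds genes that respond to these hormones, and also the receptor genes Nr3c1, Thra and Thrb and the enzyme gene Hsd11b1. Of the 15, 1 rose and 0 fell, and 5 had an unadjusted p under 0.05, which 11.2% of all genes reached. Their median difference was 0.17 on the log2 scale, against -0.02 over all genes, and it was 0.09 without IkL/L 2. Dusp1 is in this list and in that of the immediate early genes. The one that rose was Cebpd, a CCAAT/enhancer-binding protein of myeloid cells, at 8.97, 8.60 and 8.90 in IkL/L cells, against 7.59, 7.58 and 7.93 in WT cells, without overlap. Its difference was 1.12 (adjusted p = 0.0188 in limma), and the call was kept in 2 of 6 fits with 1 array left out, those without IkL/L 2 and without WT 3, and otherwise the adjusted p was up to 0.118. Of 3 genes induced by glucocorticoids in many cells, Tsc22d3 differed by 0.53 (adjusted p = 0.455), Sgk1 by 0.74 (adjusted p = 0.393) and Fkbp5 by 0.07 with an interval of -0.21 to 0.35. Hsd11b1, which regenerates active glucocorticoid, differed by 0.79 (adjusted p = 0.199) and Il7r by -1.33 (adjusted p = 0.241). None of these 5 passed the test.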

How the data were processed

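RNA of sorted LSK cells (100 ng per sample, per the labels) was hybridised to 6 arrays. The values that the authors deposited are log2 RMA values: background corrected, normalized to one distribution and summarised per probe set. In the submitters' processing notes RMA has no version and R is 2.8. A joint normalization with thymocyte arrays is described in the study's methods, and whether these values come from it was not settled here. The platform annotation gives 1 gene to 34945 of 45037 probe sets, several to 932 and lists no entry for 9160. Symbols were updated by Entrez number to RefSeq, GRCm38.p6 (34741 matched). A gene was read from its probe set with the highest mean over the 6 arrays. IkL/L was compared with WT in limma 3.58.1 under R 4.3.3 (lmFit, eBayes, genotype only, two-sided), and p-values were adjusted after Benjamini and Hochberg across the whole array. All 10 genes are named with their probe sets, and of each of the 5 lists by role those that passed or up to 4 with the smallest p. The marker genes, S1pr1, Ctbp1, Ctbp2, Hsd11b1, Il7r, Sgk1, Tsc22d3 and Fkbp5 were named after their values were seen. The members, these lists and the 8 marker lists were chosen with earlier results of these data known. No source used here says whether samples of a group were prepared separately, so p-values measure the spread between these samples, and the number of arrays limits the precision. The fit was tested on simulated data, where 20% of the 1.5-fold and 100% of the 2-fold changes were recovered. Of the 171 calls in these simulated data, 6.43% were false.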

Additional observations from a re-analysis of the deposited data

How the results depend on the processing

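Klf9 kept its direction under all 14 alternatives. It stayed called under a second quantile normalization, median centring, the filter on dim probe sets, an intensity trend, array weights and the mean of its 7 probe sets, which gave a smaller difference of 0.514 (adjusted p = 0.0273). With the replicate number as a block (replicate block), its difference was 1.15 (adjusted p = 0.116 in limma), 0 probe sets of the family and 143 of the whole array were called. Deviations of equally numbered samples correlated at 0.0084, -0.112 and 0.0789, and those of the other pairs at -0.129 to 0.12. Sample 3 of each group correlated best with its own number, and samples 1 and 2 with another. Correlations this small do not settle whether equally numbered samples were prepared together. Without WT 2 and IkL/L 2, an alternative chosen after seeing the data, the values were 0.991 (adjusted p = 0.159), 0 and 151. Leaving out 1 array gave 57 (without WT 1) to 287 (without WT 3) calls on the whole array, 0 to 3 calls in the family and 0.999 to 1.35 for Klf9 (adjusted p = 0.0174 to 0.215). The 3 calls came without IkL/L 3 and were all of Klf9, and the other 5 fits gave 0. Signs turned in these cases: with median centring Klf5 was at 0.000361 and Klf7 at 0.00436, without WT 2 and IkL/L 2 Klf6 was at -0.235, and with the mean of all probe sets Klf12 was at -0.011 and Klf13 at 0.0194. With 1 array left out, Klf2 ranged from -0.11 to 1.35, Klf3 from -0.0913 to 0.12, Klf5 from -0.194 to 0.12, Klf6 from -0.318 to 0.415, Klf7 from -0.146 to 0.129, Klf10 from -0.223 to 0.0116 and Klf13 from -0.263 to 0.0289. Klf4 turned under none of them. The values carry no detection call, so whether the 12 dim probe sets of the 38 lie above background was not tested.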
